A study of Mus musculus with 30 samples.

Results

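The comparison described here asked whether the difference between desmoplakin-haploinsufficient and wild-type cardiac myocytes at 6 months of age changed with endurance exercise. It compared 20 of the 30 libraries of the series, 5 in each of 4 groups. The other libraries came from 3-month-old Myh6-Cre:DspW/F and wild-type mice with regular activity. They entered the same fit and so contributed to its estimate of the spread between libraries. Exercised heterozygous libraries came from Myh6-Cre:DspW/F mice, 6 months old, that had done treadmill exercise, and exercised wild-type libraries came from wild-type mice of that age with the same exercise. Regular-activity heterozygous and regular-activity wild-type libraries came from 6-month-old mice of the same genotypes that had not been exercised. RNA was total RNA of isolated cardiac myocytes, sequenced after depletion of ribosomal RNA. The Myh6 promoter drives Cre in cardiac myocytes, so the floxed Dsp copy is removed there and other cells of the heart keep both copies. Whether Cre was also present in wild-type mice is not in the labels. They number the libraries of each group 1 to 5 without saying that each came from a separate animal, so that the p-values measure the spread between these libraries, which may be technical.

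Desmoplakin, the product of Dsp, ties the desmosomes of the intercalated disc to the desmin filaments of the cardiac myocyte. Loss-of-function variants of its gene are a known cause of arrhythmogenic cardiomyopathy, in which myocytes are lost, the ventricle scars and arrhythmia follows. Endurance exercise loads these junctions and is known as a modifier of that disease.

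For each gene, the genotype gap is the log2 difference of heterozygous minus wild-type libraries. The exercised pair of groups (10 libraries) and the regular-activity pair (10 libraries) each gave a gap, and the 2 gaps share no library. The interaction is the exercised gap minus the regular-activity gap. A negative interaction means that the heterozygous libraries stood lower against wild type with exercise than without it, and a change by the same factor in both exercised groups cancels. All differences are on the log2 scale. All levels are in CPM, counts scaled to the library's total after that total was adjusted by TMM, edgeR's scaling between libraries. Gene length was not taken into account, so that levels of different genes are not compared. Ratios and fold bounds drawn from counts summed over a group used totals without the TMM adjustment.

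Total counts ran from 12.8 to 20.6 M (mega) in the 10 exercised libraries and from 17.1 to 23.7 M in the 10 regular-activity libraries. All 18 markers of ventricular myocytes were counted in all 20 libraries. Of 13 markers of lymphocytes and neutrophils, 1 passed the filter on low counts, and 6 (Nkg7, Cd3d, Cd3e, Cd79b, Ly6g and Ms4a1) were at 0 in most libraries. Markers of endothelial cells, fibroblasts, pericytes and macrophages were present, and their levels are given beside the results they accompany. A pair of libraries stood apart in many measures. Exercised wild-type library 1 drew 46.9% of its counts from the mitochondrial genome, against 20.8 to 25.9% in the other 4 of its group, and had the highest endothelial, pericyte and macrophage marker levels of that group. Exercised heterozygous library 4 held the highest Myh7 and Nppa levels and the highest fibroblast and macrophage marker levels of its group. The exercised libraries had no value entered for any spike-in RNA, whereas the regular-activity libraries had a value for 11 to 18 of them. That difference runs with exercise and not with genotype.

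Across 15587 genes, the interaction passed an adjusted p of 0.05 (edgeR's quasi-likelihood test with Benjamini-Hochberg adjustment) for 2, or 0.0128%. These were Rps2-ps10, a processed pseudogene, and Aqp6, an aquaporin known from intracellular vesicles of the kidney, and both interactions were negative. The count was 0 without any 1 of 7 libraries (exercised heterozygous 1, 2 or 3, regular-activity heterozygous 2, or regular-activity wild-type 3, 4 or 5), 7 without exercised wild-type library 5, and 0 with the 6-month libraries fitted alone. At an unadjusted p under 0.05 the interaction held for 765 genes, or 4.91%, of which 442 were positive (2.84%) and 323 negative (2.07%). The sign of the interaction was positive for 51.3% and negative for 48.7% of all genes, with a median of 0.01. The interaction carried a larger error than either gap, with a median standard error of 0.32 against 0.23 for the exercised and 0.22 for the regular-activity gap. The median half-width of its 95% interval was 0.65, and the interval lay within 1 of 0 for 8326 genes (53.5%). For the other genes the data do not bound the change of the gap to within a factor of 2 in both directions.

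**Figure D1:**
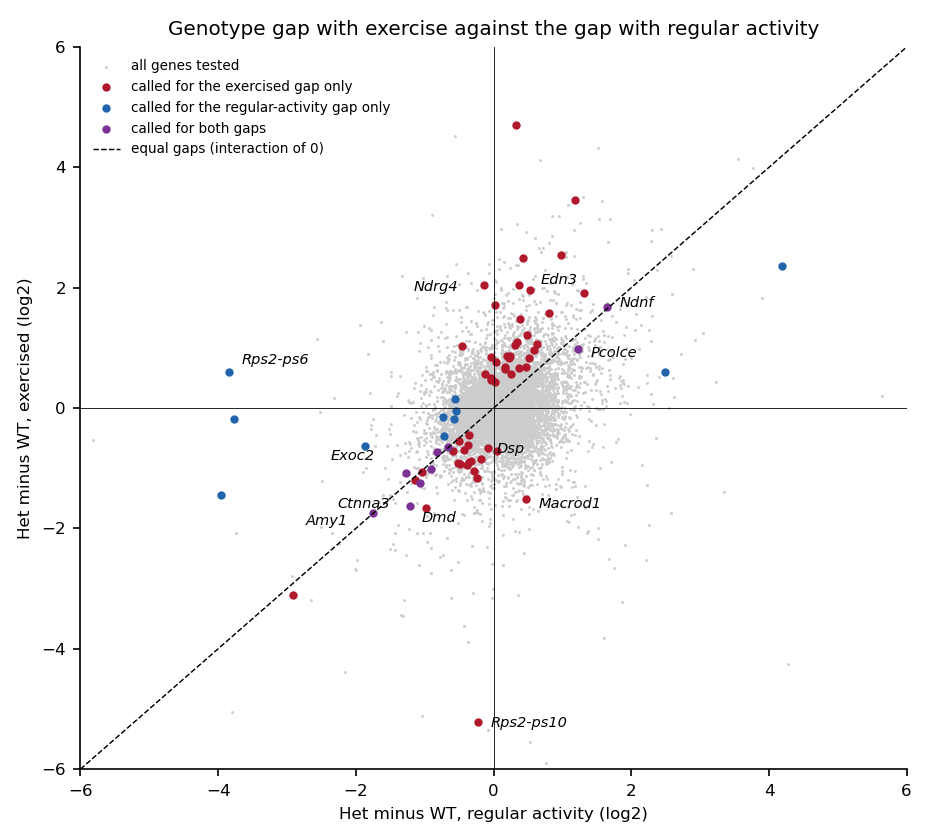
Genotype gap (log2, heterozygous minus wild type) of the 15587 genes in the regular-activity pair (x axis) and in the exercised pair (y axis). Genes called for a gap are marked, and 6 genes lie outside the axes, among them 1 called gene, Irs4. Aqp6, called for the interaction but for neither gap, is not marked. The other genes called for both gaps lie along the diagonal, and Rps2-ps10 lies near 0 on the x axis and at -5.23 on the y axis.

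The gaps themselves were called more often. With exercise 63 genes (0.404%) differed by genotype, 35 higher (0.225%) and 28 lower (0.18%) in heterozygous libraries. With regular activity 21 genes (0.135%) differed, 5 higher (0.0321%) and 16 lower (0.103%), and 10 genes were called in both. The gaps had the same sign for 57.7% of all genes. Passing the threshold for one gap and not for the other does not show that the gaps differ, and for all but 1 of the 64 genes called for a single gap the interaction missed its own threshold.

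Dsp, the targeted gene (chr13:38151294-38198577, plus strand; mm10), had 939, 822, 869.5, 903 and 705 CPM in the 5 exercised heterozygous libraries and 1312, 1907, 1778, 1881 and 928 CPM in the 5 exercised wild-type libraries. It had 620.4, 653, 593, 581 and 679.8 CPM in regular-activity heterozygous libraries and 683, 664, 636, 1021 and 916 CPM in regular-activity wild-type libraries. Exercised wild-type library 5 was the only one of its group within the range of the exercised heterozygous libraries, and the regular-activity groups overlapped. The exercised gap was -0.88 (SE 0.19, adjusted p = 0.0287) and the regular-activity gap -0.33 (SE 0.19, adjusted p = 0.657; edgeR). Dsp thus fell with genotype in the exercised pair. The interaction was -0.56 (SE 0.27, 95% interval -1.11 to -0.0031, adjusted p = 0.999) and was not called. Reads of the floxed copy outside the deleted part are counted too, so that a whole-gene count need not follow the number of intact copies.

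Rps2-ps10 (ENSMUSG00000091957, chromosome 18), a processed copy of the ribosomal protein gene Rps2, had 1.17, 1.18, 0.839, 0.946 and 0.886 CPM in exercised heterozygous libraries and 47.8, 48.8, 43.8, 47.2 and 0.764 CPM in exercised wild-type libraries. In the regular-activity pair it had 0.677, 1.02, 0.887, 0.913 and 0.759 CPM in heterozygous and 0.654, 1.64, 0.745, 1.02 and 0.969 CPM in wild-type libraries. The interaction of -5 (SE 0.82, adjusted p = 0.0172; edgeR) thus rested on 4 exercised wild-type libraries, since exercised wild-type library 5 lay at the level of the other 15. Its exercised gap was -5.23 (SE 0.6) and its regular-activity gap -0.23 (SE 0.59).

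Aqp6 (chr15:99601400-99605477, plus strand) was high in some libraries of 2 groups that differ in both genotype and exercise. It had 0.0837, 0.138, 0, 0.709 and 0 CPM in exercised heterozygous libraries, against 9.44, 0.474, 13.7, 16.9 and 8.86 CPM in exercised wild-type libraries. With regular activity the order was turned, with 0.127, 15, 0.111, 10.2 and 6.01 CPM in heterozygous and 0, 0, 0, 0 and 0.145 CPM in wild-type libraries. High values thus occurred in 4 of 5 exercised wild-type and 3 of 5 regular-activity heterozygous libraries. The exercised heterozygous libraries held 15 Aqp6 counts in all and the exercised wild-type libraries 794, a ratio of 0.0216 (95% interval 0.012 to 0.0358). The regular-activity heterozygous libraries held 745 and the wild-type libraries 3, a ratio of 245 (95% interval 83.4 to 1189). These intervals cover counting error only and not the spread between libraries. The fitted interaction of -13.03 (SE 2.12, adjusted p = 0.0172; edgeR) depends on the prior count because 2 groups are almost at 0, and neither gap was called by itself (adjusted p = 0.0735 with exercise and 0.0666 with regular activity).

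**Figure D2:**
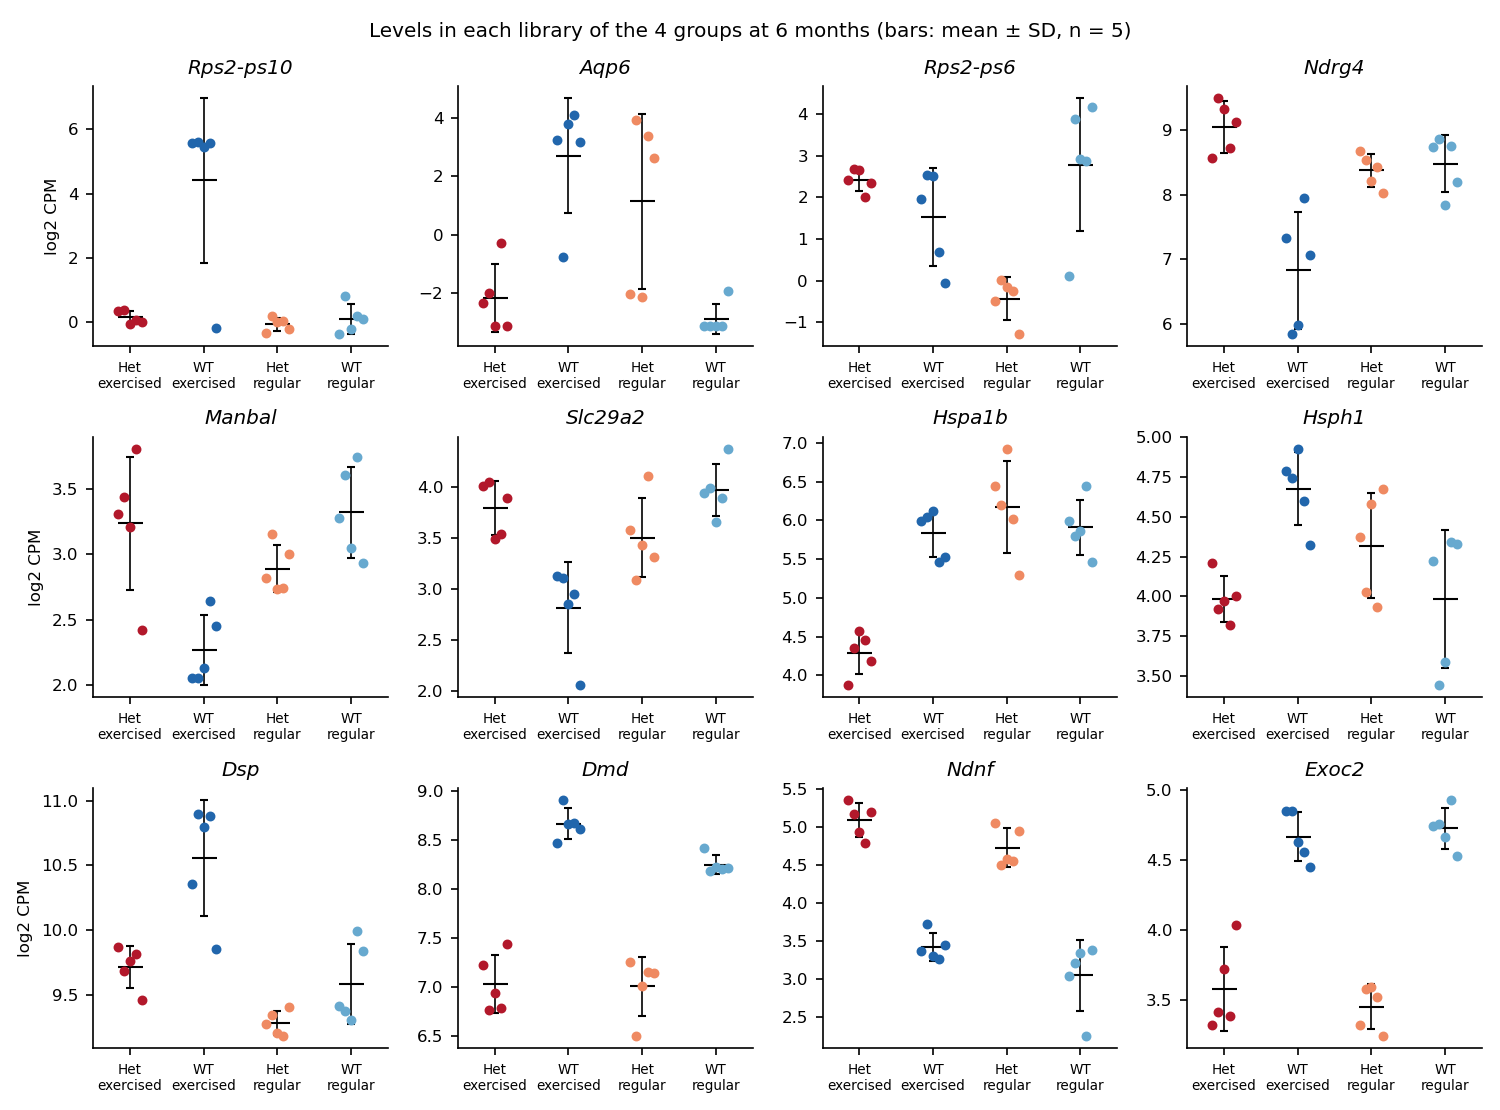
Level (log2 CPM) of 12 genes in each of the 20 libraries at 6 months, with the mean and SD of each group (n = 5). Rps2-ps10 is high in 4 exercised wild-type libraries only and Aqp6 in some libraries of the exercised wild-type and the regular-activity heterozygous groups, whereas Dmd, Ndnf and Exoc2 separate the genotypes in both pairs.

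Another copy of Rps2 came next in order of p. Rps2-ps6 (chr14:76236691-76237545, minus strand), a processed pseudogene in GENCODE M21 and protein-coding in the deposited table, had 5.27, 6.36, 6.22, 3.9 and 4.95 CPM in exercised heterozygous and 3.82, 5.75, 5.65, 1.49 and 0.84 CPM in exercised wild-type libraries. In regular-activity heterozygous libraries it had 0.593, 0.898, 0.776, 0.723 and 0.292 CPM, and in regular-activity wild-type libraries 0.956, 14.6, 7.45, 7.28 and 17.9 CPM. Its regular-activity gap was called (-3.85, SE 0.65, adjusted p = 0.00532) and its interaction of 4.45 (SE 0.85) was not (adjusted p = 0.0816; edgeR). Regular-activity wild-type library 1 lay near the level of the heterozygous libraries of its pair, and exercised wild-type libraries 4 and 5 lay below the other 3 of their group. The functional gene Rps2 had 527 ± 109.9 CPM in exercised heterozygous, 479 ± 116 in exercised wild-type, 807 ± 64.6 in regular-activity heterozygous and 671 ± 124 CPM in regular-activity wild-type libraries (SD, n = 5 each), with an interaction of -0.13 (SE 0.24). Rps2 was described because of its copies, after its values were seen.

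Both copies are nearly the same sequence as Rps2, so the authors' counting may have divided reads between them, and the values of both pseudogenes are uncertain for that reason. Against the 1094-base transcript Rps2-201 (GENCODE M21), the 879 bases of Rps2-ps10 aligned with 5 mismatches (99.4% identical) and held an identical run of 302 bases. The 855 bases of Rps2-ps6 aligned with 7 mismatches and 24 gap positions (96.5% identical) and held an identical run of 211 bases. The stretch below, 90 bases long, shows how little separates a copy from the gene it copies. It is transcript bases 172 to 261 of Rps2-ps6 (chr14:76237285-76237374, minus strand, GRCm38) and bases 362 to 451 of Rps2-201, and capitals mark the 2 mismatches.
Rps2-ps6: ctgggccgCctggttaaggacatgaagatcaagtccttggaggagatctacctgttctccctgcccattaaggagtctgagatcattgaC
Rps2: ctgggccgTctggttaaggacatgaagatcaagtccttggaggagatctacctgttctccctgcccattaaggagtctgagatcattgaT
Processed pseudogenes, by the GENCODE annotation, were 4 of the 10 genes with the smallest interaction p (Rps2-ps10, Rps2-ps6, Gm15772 and Rpl3-ps1) and 5 of the first 20, against 437 of all 15587 genes tested (2.8%). Gm15772 had 0.251, 0.0691, 0.21, 0.0591 and 0.222 CPM in exercised heterozygous and 4.3, 4.21, 3.11, 3.78 and 0.229 CPM in exercised wild-type libraries, so that exercised wild-type library 5 was again the one that lacked the level of the other 4. Gm15772 and Rpl3-ps1 were named after their values were seen.

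Among the other genes with the smallest p for a positive interaction, Ndrg4, Manbal, Slc29a2, Ift27 and Slc37a1 had interactions above 1 on the log2 scale. None was called in the main edgeR fit, with all libraries and the filter on low counts. Ndrg4 (chr8:95676980-95715119, plus strand), an N-myc downstream-regulated family gene expressed in heart and brain, had 379.7, 725, 645, 423 and 558 CPM in exercised heterozygous and 161, 57, 62.9, 247 and 134 CPM in exercised wild-type libraries. Without exercise it had 411, 372, 298, 344 and 260.0 CPM in heterozygous and 426, 466, 229, 431 and 295 CPM in wild-type libraries. The exercised groups did not overlap and the regular-activity groups did. Ndrg4 rose with genotype in the exercised pair (gap 2.04, SE 0.35, adjusted p = 0.00471), and the regular-activity gap was -0.13 (SE 0.33). The interaction was 2.18 (SE 0.48, 95% interval 1.2 to 3.16) with an adjusted p of 0.249 in edgeR. It was below 0.05 without exercised wild-type library 4, the highest of its group (0.0458), with DESeq2 (0.00392) and with limma-voom (0.0352).

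Manbal (chr2:157367594-157396763, plus strand) averaged 9.76 ± 3.11 CPM in exercised heterozygous and 4.76 ± 0.941 CPM in exercised wild-type libraries, against 7.35 ± 0.967 in regular-activity heterozygous and 10.1 ± 2.49 CPM in regular-activity wild-type libraries (SD, n = 5 each). Both pairs overlapped by 1 or more libraries, and the gaps had opposite signs (1.04 with exercise and -0.46 with regular activity; interaction 1.5, SE 0.31, adjusted p = 0.129 in edgeR). For Manbal the adjusted p was 0.0099 with DESeq2, 0.0322 without the filter on low counts and 0.0369 without exercised heterozygous library 5. Slc29a2 (chr19:5023860-5031972, plus strand), an equilibrative nucleoside transporter, had 16, 16.5, 11.1, 11.5 and 14.7 CPM in exercised heterozygous and 8.61, 8.53, 7.11, 7.62 and 4.05 CPM in exercised wild-type libraries. In the regular-activity pair it had 11.9, 8.37, 10.7, 17.2 and 9.81 CPM in heterozygous and 15.2, 15.7, 12.5, 14.8 and 20.6 CPM in wild-type libraries. Slc29a2 was higher in all 5 exercised heterozygous libraries than in any exercised wild-type library, while the regular-activity groups overlapped (interaction 1.39, SE 0.33, adjusted p = 0.311). Ift27, a subunit of the intraflagellar transport complex of cilia, averaged 7.29 ± 1.29 and 4.4 ± 0.776 CPM in exercised heterozygous and wild-type libraries and 4.14 ± 0.879 and 5.96 ± 1.04 CPM in regular-activity heterozygous and wild-type libraries (interaction 1.25, SE 0.31). The remaining 5 genes named by the smallest p in this direction were Slc37a1 at 1.03, Pdcd7 (a minor spliceosome subunit) at 0.88, Ak4 (an adenylate kinase of the mitochondrial matrix) at 0.72, Slco3a1 (an organic anion transporter) at 0.69 and Sulf2 (an extracellular sulfatase of heparan sulfate) at 0.66, with adjusted p between 0.311 and 0.414.

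Ak4 and Sulf2 show how a gap called in one pair can read in the other. Ak4 (chr4:101419277-101466995, plus strand) fell with genotype under regular activity, with 56.9, 54.6, 54.3, 45.4 and 52.1 CPM in heterozygous and 87.5, 72.9, 67.9, 89.5 and 72 CPM in wild-type libraries (gap -0.57, SE 0.12, adjusted p = 0.0496). The exercised libraries had 67.7, 82.4, 72.4, 63.9 and 81.4 CPM in heterozygous and 57.9, 74.9, 72.4, 77.8 and 48.1 CPM in wild-type myocytes and overlapped (gap 0.15, SE 0.12). Sulf2 rose with genotype in the exercised pair, with 114, 136, 125, 114 and 95.6 CPM in heterozygous and 60.5, 73.7, 62.8, 55.5 and 69.8 CPM in wild-type libraries (gap 0.86, SE 0.12, adjusted p = 0.000172). Its regular-activity gap had the same sign at 0.2 (SE 0.12). Both genes were named for the small p of their interaction and picked here for a gap called in 1 pair. Neither their interaction nor the contrast of their gaps is independent of that choice.

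**Figure D3:**
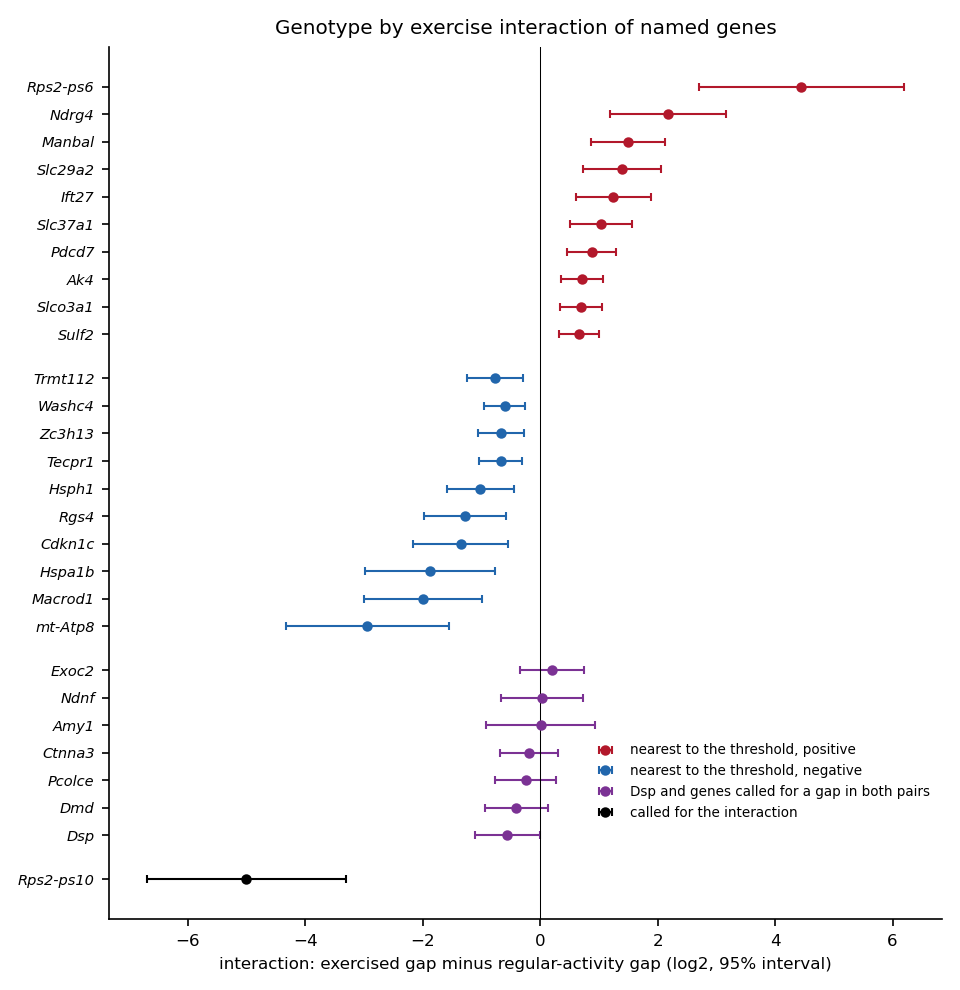
Interaction (log2, exercised gap minus regular-activity gap) with its 95% interval for named genes. Drawn are Dsp, Rps2-ps10, the named genes with the smallest p in each direction and some of the genes called for both gaps. Rps2-ps10 at -5 and Aqp6 at -13.03 (not drawn) were the only genes called, and the intervals of Dmd, Ndnf and Exoc2 hold 0.

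After Rps2-ps10 and Aqp6, and apart from the pseudogenes Gm15772 and Rpl3-ps1, the named genes with the smallest p for a negative interaction were mt-Atp8 and Macrod1. Neither mt-Atp8 nor Macrod1 was called in the main edgeR fit. The gene mt-Atp8 (chrM:7766-7969, plus strand), a mitochondrially encoded subunit of the ATP synthase, had 31.2, 61, 23.6, 15.5 and 30.3 CPM in exercised heterozygous and 251, 143, 60.7, 115 and 24.4 CPM in exercised wild-type libraries. In the regular-activity pair it had 17.1, 8.13, 16.2, 17 and 12.7 CPM in heterozygous and 11.9, 4.57, 5.02, 5.14 and 7.36 CPM in wild-type libraries (interaction -2.94, SE 0.67, adjusted p = 0.311 in edgeR). Exercised wild-type library 1, with the highest value, also had the highest mitochondrial share (46.9%). The exercised groups overlapped, and the gene overlaps mt-Atp6, so its count is uncertain. Macrod1 (chr19:7056810-7198057, plus strand), a mitochondrial ADP-ribosylhydrolase, had 56.8, 46.6, 45.4, 31.2 and 27 CPM in exercised heterozygous and 84.7, 124, 104, 115 and 164 CPM in exercised wild-type libraries. It had 95.6, 124, 105, 50.9 and 96.9 CPM in regular-activity heterozygous and 56, 54.1, 119.7, 58.9 and 50.4 CPM in regular-activity wild-type libraries. Macrod1 fell with genotype in the exercised pair without overlap (gap -1.52, SE 0.35, adjusted p = 0.0497), its regular-activity gap was 0.48 (SE 0.34), and its interaction of -1.99 (SE 0.48) was not called (adjusted p = 0.394). The other named genes of this direction were Rgs4 at -1.27, Cdkn1c at -1.35, Trmt112 at -0.77, Tecpr1 at -0.67, Zc3h13 at -0.67 and Washc4 at -0.6, beside the chaperones Hspa1b and Hsph1. Rgs4, which shortens G-protein signalling, had 6.61, 8.57, 9.58, 10.2 and 8.57 CPM in exercised heterozygous and 28.1, 11.3, 8.19, 12.4 and 14.1 CPM in exercised wild-type libraries. Exercised wild-type library 1 was the highest there, as it was for the cyclin-dependent kinase inhibitor Cdkn1c.

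Heat shock chaperones were among the genes with the smallest p in this direction. Of 32 tested genes of heat shock and the unfolded protein response, the interaction was negative for 23 and positive for 9, with a median of -0.18. At an unadjusted p under 0.05 it was negative for 7, which were Hspa1a, Hspa1b, Hspa8, Hsph1, Hsp90aa1, Hsp90ab1 and Dnaja1, and positive for Herpud1, against 2.07% negative and 2.84% positive of all genes, while none was called after adjustment in edgeR. The 7 are cytosolic chaperones or their partners, and Herpud1 belongs to the endoplasmic reticulum. Their named members Hspa1b and Hspa1a encode inducible Hsp70, Hsph1 a nucleotide exchange factor of Hsp70, and Hsp90ab1 the constitutive cytosolic Hsp90.

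Hspa1b (chr17:34956436-34959238, minus strand) had 14.5, 20.3, 23.7, 21.9 and 18 CPM in exercised heterozygous and 63.6, 65.7, 69.5, 44.1 and 46.1 CPM in exercised wild-type libraries. Under regular activity it had 86.8, 73, 121, 64.4 and 39.3 CPM in heterozygous and 63.4, 55.3, 58.3, 86.7 and 44.1 CPM in wild-type libraries. The exercised heterozygous libraries all lay below every other library of the 4 groups (interaction -1.87, SE 0.53, adjusted p = 0.553 in edgeR). Hspa1a showed the same order, with 5.02, 3.66, 9.72, 10.3 and 9.38 CPM in exercised heterozygous and 20.2, 21.7, 21, 14.9 and 22.5 CPM in exercised wild-type libraries (interaction -1.71, SE 0.53). Hspa1a and Hspa1b are near-identical copies, so reads may have been divided between them and they are not separate evidence. Hsph1 (chr5:149614287-149636376, minus strand) had 18.4, 15, 15.6, 14 and 15.9 CPM in exercised heterozygous and 27.5, 26.7, 30.3, 24.1 and 19.9 CPM in exercised wild-type libraries, and 20.6, 16.2, 23.8, 15.1 and 25.5 CPM in regular-activity heterozygous and 18.6, 10.7, 11.9, 20.1 and 19.96 CPM in regular-activity wild-type libraries (interaction -1.02, SE 0.28, adjusted p = 0.472). Hsp90ab1 averaged 650.5 ± 69.5 CPM in exercised heterozygous and 855 ± 101 CPM in exercised wild-type libraries, against 691 ± 129 and 638 ± 62.8 CPM in regular-activity heterozygous and wild-type libraries (SD, n = 5 each; interaction -0.51, SE 0.17).

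Over the 32 genes the mean log2 CPM was 6.49, 6.4, 6.41, 6.34 and 6.42 in exercised heterozygous libraries and 6.63, 6.69, 6.83, 6.57 and 6.69 in exercised wild-type libraries, without overlap. It was 6.59, 6.56, 6.5, 6.51 and 6.53 in regular-activity heterozygous and 6.6, 6.56, 6.37, 6.63 and 6.48 in regular-activity wild-type libraries, which overlapped. The groups of the exercised pair did not overlap for 5 of the 32 genes (Hspa1a, Hspa1b, Hsph1, Dnaja1 and Hspe1), against 1.84% of all genes, and those of the regular-activity pair for 1 (Atf4), against 4.02%. The list median stayed between -0.27 and -0.14 when any 1 library was left out.

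The promoters of the 3 genes with the smallest p of this list are shown because they hold matches to the heat shock element, inverted repeats of GAA to which heat shock factors bind. In the RefSeq windows of GRCm38.p6, from 250 bases before to 50 bases after a start, Hspa1b (chr17:34959295-34959382, minus strand) and Hspa1a (chr17:34972213-34972300, minus strand) hold the same 88 bases around the motif GAANNTTC, 104 bases before the start, and differ at 4 of 300 bases over the window. Hsph1 (chr5:149636286-149636340, minus strand) holds TTCNNGAA followed by NN and TTC, which begins 15 bases after the first transcribed base. Capitals mark the repeats.
Hspa1b and Hspa1a: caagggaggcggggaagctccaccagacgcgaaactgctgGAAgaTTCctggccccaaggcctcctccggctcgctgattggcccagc
Hsph1: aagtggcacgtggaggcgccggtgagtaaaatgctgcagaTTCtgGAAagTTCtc
Searched on both strands, GAANNTTC or TTCNNGAA was present in 4946 of 32851 windows (15.1%; 17% of genes) and in 9 of the 27 list genes that had a window. The longer motif, in which NN and another GAA follow GAANNTTC or NN and another TTC follow TTCNNGAA, contains the shorter one. It was present in 198 windows (0.603%; 0.662% of genes) and in 3 of the 27, which were Hspd1, Hspe1 and Hsph1. A match describes the letters in the window and not binding.

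**Figure D4:**
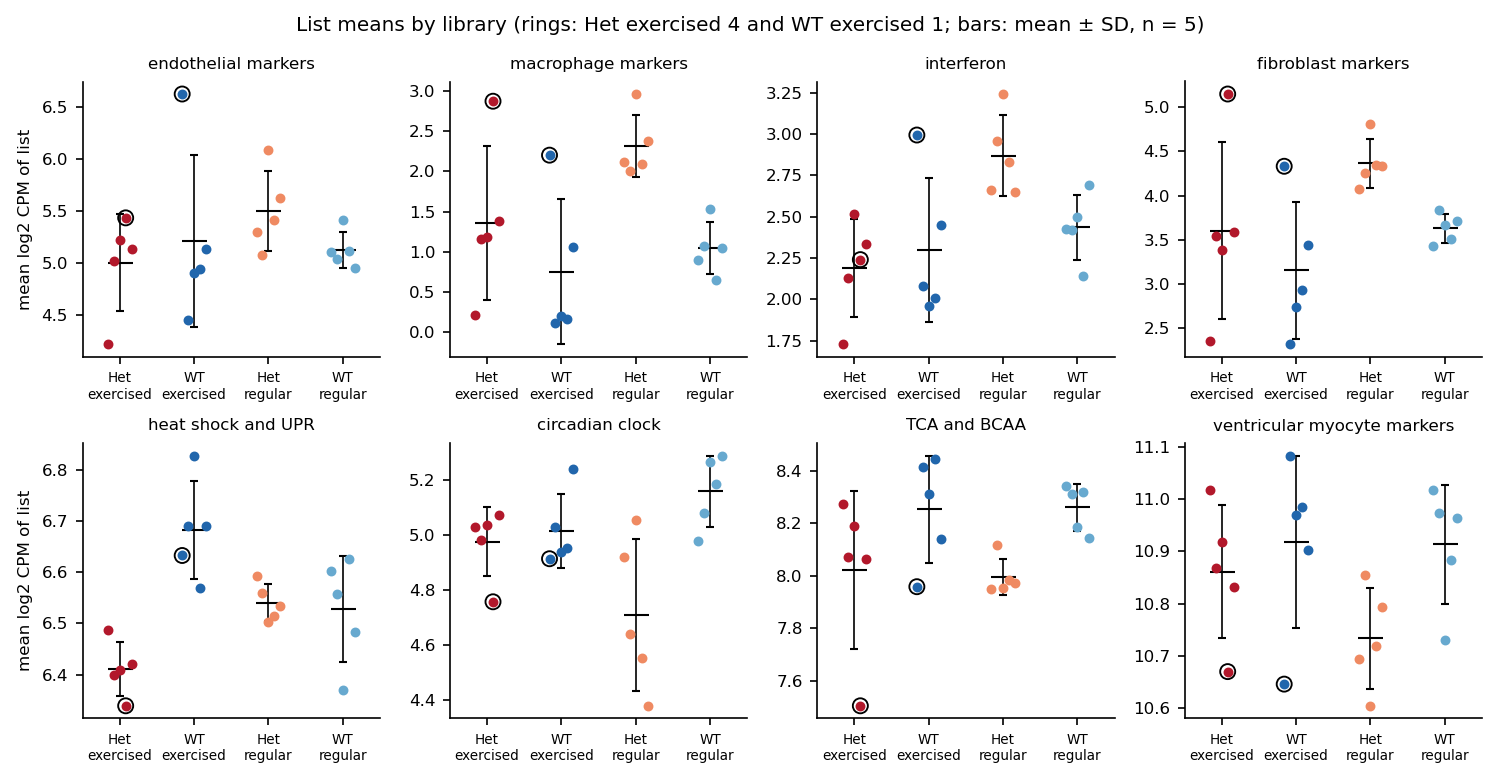
Mean log2 CPM of 8 gene lists in each of the 20 libraries, with the mean and SD of each group (n = 5); rings mark exercised heterozygous library 4 and exercised wild-type library 1. The heat shock list separates the exercised groups (6.34 to 6.49 in heterozygous against 6.57 to 6.83 in wild-type libraries), and each ringed library is the highest of its group for the endothelial, macrophage and fibroblast lists.

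The 10 genes called for both gaps included structural genes of the myocyte membrane and disc. For 9 of the 10 (Acot7, Amy1, Ctnna3, Dcakd, Dmd, Exoc2, Ndnf, Pcolce and Prrg1) the 95% interval of the interaction held 0, and over the 9 these intervals reached from -0.94 to 0.94 at most. Such an interval leaves room for a change of the gap by less than a factor of 2 in either direction and does not show that the gaps are equal. All 10 had the same sign in both pairs; the sign was free, but each gap had to pass its threshold.

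Dmd (chrX:82948870-85206141, plus strand) encodes dystrophin, which joins the actin cytoskeleton to the membrane. It had 149, 109, 122, 109.9 and 173 CPM in exercised heterozygous and 355, 481, 405, 409 and 391 CPM in exercised wild-type libraries, and 152, 90.05, 128, 142 and 141 CPM in regular-activity heterozygous and 342, 291, 298, 295 and 297 CPM in regular-activity wild-type libraries. It fell with genotype in both pairs without overlap, by gaps of -1.62 (SE 0.19) with exercise and -1.22 (SE 0.19) with regular activity, and the interaction was -0.4 (95% interval -0.94 to 0.14). Ndnf (chr6:65671590-65712326, plus strand), a secreted neurotrophic factor, had 40.9, 36.1, 30.5, 27.6 and 36.7 CPM in exercised heterozygous and 10.2, 13.1, 9.78, 9.54 and 10.8 CPM in exercised wild-type libraries. With regular activity it had 33.2, 22.6, 23.8, 23.4 and 30.7 CPM in heterozygous and 8.15, 9.2, 10.1, 4.63 and 10.4 CPM in wild-type libraries. Ndnf rose with genotype in both pairs by 1.68 and 1.65, which left an interaction of 0.03 (95% interval -0.66 to 0.73).

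Exoc2 (chr13:30813919-30974093, minus strand), a subunit of the exocyst that tethers secretory vesicles, averaged 12 ± 2.7 CPM in exercised heterozygous and 25.4 ± 3.12 CPM in exercised wild-type libraries, and 10.9 ± 1.19 and 26.4 ± 2.69 CPM in regular-activity heterozygous and wild-type libraries (SD, n = 5 each; interaction 0.2, 95% interval -0.35 to 0.74). Ctnna3, the alpha-T-catenin of the intercalated disc, averaged 23.3 ± 7.28 CPM in exercised heterozygous and 55.4 ± 6.49 CPM in exercised wild-type libraries, against 26.2 ± 3.29 and 54.8 ± 6.19 CPM in regular-activity heterozygous and wild-type libraries (interaction -0.19, 95% interval -0.68 to 0.31). Pcolce, an enhancer of procollagen processing, averaged 50.8 ± 11.9 CPM in exercised heterozygous and 25.7 ± 4.92 CPM in exercised wild-type libraries, against 46.4 ± 4.97 and 19.8 ± 1.62 CPM in regular-activity heterozygous and wild-type libraries (interaction -0.24, 95% interval -0.76 to 0.28). Amylase gene Amy1, which belongs to a family of related genes, had gaps of -1.74 with exercise and -1.76 with regular activity. Irs4, an insulin receptor substrate, was at 0 in all 10 wild-type libraries. It held 8, 12, 25, 20 and 9 counts in exercised heterozygous and 9, 8, 5, 13 and 8 counts in regular-activity heterozygous libraries. Against 3 counts over the wild-type group, Irs4 was at least 28.2-fold higher with exercise and at least 14.1-fold higher with regular activity, and bounds of this kind cannot be set against each other. Irs4 was named for being at 0 in wild type, after its values were seen.

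Since the pairs share no library, the genes called in one can be read in the other, apart from the shared normalization and dispersion. Of the 21 genes called with regular activity, 19 had the same sign with exercise and 12 did so at an unadjusted p under 0.05, which 9.78% of all genes passed in that pair (4.99% higher and 4.79% lower). Their median gap was 1.23 where they were called and 0.74 with exercise in the same direction, and 5 were larger with exercise. Of the 63 genes called with exercise, 55 had the same sign with regular activity, 31 at an unadjusted p under 0.05, which 8.79% of all genes passed there (2.84% higher and 5.95% lower). Their median gap was 0.99 where they were called and 0.38 with regular activity. Only 5 of the 63 were larger with regular activity. Genes chosen for passing a threshold in one set of libraries tend to read smaller in another on selection alone, so these medians do not measure a change with exercise.

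The exceptions were 10 genes. Ak4 and Rps2-ps6 were called with regular activity and had the opposite sign with exercise. Bcam, Hmga1, Macrod1, Manbal, Ndrg4, Pigq, Slco3a1 and Trmt112 were called with exercise and had the opposite sign with regular activity. The regular-activity gaps of these 8 were small in size for Ndrg4 (-0.13), Slco3a1 (-0.12), Bcam (-0.04), Hmga1 (-0.04), Pigq (-0.04) and Trmt112 (0.05) and larger for Manbal (-0.46) and Macrod1 (0.48). None of those regular-activity gaps was called.

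Hk1, Adhfe1 and Immp2l were among the 53 genes called with exercise only. Hk1 (chr10:62268855-62379908, minus strand), the hexokinase that commits glucose to glycolysis, had 300.3, 339, 316, 352 and 306 CPM in exercised heterozygous and 189, 238, 221, 173 and 209 CPM in exercised wild-type libraries. Under regular activity it had 237, 229, 177, 178 and 162 CPM in heterozygous and 166, 207, 164, 175 and 162 CPM in wild-type libraries. Hk1 rose with genotype in the exercised pair without overlap (gap 0.65, SE 0.11, adjusted p = 0.00471), its regular-activity gap was 0.17 (SE 0.11), and the interaction of 0.48 (SE 0.16) was not called (adjusted p = 0.818). Adhfe1, a mitochondrial transhydrogenase of hydroxybutyrate, averaged 64.6 ± 21.5 CPM in exercised heterozygous and 145 ± 18.9 CPM in exercised wild-type libraries, against 86.7 ± 12.5 and 103 ± 29.3 CPM in regular-activity heterozygous and wild-type libraries (SD, n = 5 each). It fell with genotype in the exercised pair (gap -1.16, adjusted p = 0.00471), and its interaction was -0.92 (SE 0.28, adjusted p = 0.731). Immp2l, a protease of the inner mitochondrial membrane, fell with genotype in the exercised pair (gap -1.67) and had a regular-activity gap of -0.98 that was not called, with an interaction of -0.69 whose 95% interval (-1.43 to 0.05) held 0.

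Genes of the junctions beside Dsp gave small interactions. Of 20 desmosome and intercalated disc genes the interaction was positive for 16 and negative for 4, with a median of 0.12, against 51.3% positive of all genes, and none was called. The median was -0.04 without exercised heterozygous library 4 and exercised wild-type library 1 together. The desmosomal partners of desmoplakin were Jup (plakoglobin) at 0.05 (SE 0.16), Pkp2 (plakophilin) at 0.12 (SE 0.19), Dsg2 (a desmosomal cadherin) at 0.35 (SE 0.22) and Dsc2 (another) at 0.19 (SE 0.19). The gap junction gene Gja1 was at -0.21 (SE 0.36). Jup averaged 184 ± 16.4 CPM in exercised heterozygous and 183 ± 38.6 CPM in exercised wild-type libraries, against 244 ± 12.4 and 252 ± 18.2 CPM in regular-activity heterozygous and wild-type libraries (SD, n = 5 each).

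Genes of calcium handling and ion channels had positive interactions for 27 of 39 (median 0.16), against 51.3% of all genes. Jph1 (chr1:16964560-17097889, minus strand), a junctophilin that holds the sarcoplasmic reticulum to the T-tubule, had 43.9, 38.6, 39.2, 42.3 and 39.7 CPM in exercised heterozygous and 29.9, 45.6, 44.7, 43.3 and 46.1 CPM in exercised wild-type libraries. It had 24.9, 26.2, 24.1, 18.9 and 21.8 CPM in regular-activity heterozygous and 38, 32.3, 36.6, 31.2 and 30.9 CPM in regular-activity wild-type libraries, where it fell with genotype (gap -0.54, SE 0.12, adjusted p = 0.0496). The exercised gap was -0.04 (SE 0.12), and the interaction of 0.5 (SE 0.17) was not called (adjusted p = 0.818). Casq2, the calcium-binding protein of the cardiac sarcoplasmic reticulum, averaged 1505 ± 111 CPM in exercised heterozygous and 1122 ± 171 CPM in exercised wild-type libraries, against 1084 ± 174 and 1077 ± 123 CPM in regular-activity heterozygous and wild-type libraries (SD, n = 5 each; interaction 0.41, SE 0.17). The titin cap gene Tcap of the sarcomere list had an interaction of 0.73 (SE 0.28), with 1334, 1066, 1078, 729 and 524 CPM in regular-activity heterozygous and 1233, 1558, 1518, 1955 and 1949 CPM in regular-activity wild-type libraries.

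Markers of wall stress and the fetal programme stood higher in heterozygous libraries of both pairs without reaching the threshold. The gap was positive for 25 of 26 such genes with exercise (median 0.46) and for 23 of 26 with regular activity (median 0.58), against 48.6% and 49.5% of all genes. The interaction was positive for 16 (median 0.14), but the median was -0.28 without exercised heterozygous library 4, and it was also just below 0 without regular-activity heterozygous library 3. Myh7, the slow myosin heavy chain, had 1139.5, 808, 631, 8369.7 and 728 CPM in exercised heterozygous and 257, 772, 486, 604 and 895 CPM in exercised wild-type libraries (interaction 2.2, SE 0.82). Nppa, atrial natriuretic peptide, had 127, 68, 43.7, 1329 and 164 CPM in exercised heterozygous and 49.5, 34.7, 39.7, 18.3 and 82.2 CPM in exercised wild-type libraries (interaction 1.79, SE 1.34). A single library, exercised heterozygous 4, was 8369.7 CPM for Myh7 and 1329 CPM for Nppa. Without it the interactions were 0.7 for Myh7 and 0.0019 for Nppa, and that of Nppb, the other natriuretic peptide, was -0.92. With all libraries Nppb was at -0.41 (SE 0.54) and Myh6, the fast adult myosin heavy chain, at -0.03 (SE 0.23).

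Nuclear gene lists of mitochondrial energy metabolism had negative gap medians in both pairs, whereas transcripts of the mitochondrial genome had positive ones (0.07 with exercise and 0.53 with regular activity). For the tricarboxylic acid cycle and branched-chain amino acid breakdown, the gap was negative for 36 of 36 genes with exercise (median -0.22) and 35 of 36 with regular activity (median -0.25), against 51.4% and 50.5% of all genes, and none was called in either pair. The interaction was positive for 23 and negative for 13 (median 0.07). Fatty acid oxidation genes had negative gaps for 33 of 40 with exercise (median -0.24) and 34 of 40 with regular activity (median -0.33), with an interaction median of 0.08. Both interaction medians turned negative without exercised heterozygous library 1 (-0.04 each), and with a surrogate variable (-0.05 each), and that of the tricarboxylic acid list also without exercised wild-type library 1 (-0.02). In this group Hadh, a dehydrogenase of short-chain fatty acid oxidation, had 579, 474, 372, 220.2 and 461 CPM in exercised heterozygous and 124, 452, 204, 236 and 178 CPM in exercised wild-type libraries, against 291, 488, 371, 317 and 306 CPM in regular-activity heterozygous and 735, 426, 395, 704 and 534 CPM in regular-activity wild-type libraries (interaction 1.47, SE 0.45, adjusted p = 0.755). Nuclear genes of oxidative phosphorylation had negative gaps for 70 of 72 with exercise and 57 of 72 with regular activity, and a negative interaction for 52 (median -0.08). Of 30 glycolysis and glucose uptake genes the interaction was positive for 22 (median 0.14), among them Pdk1, a kinase that inhibits pyruvate dehydrogenase, which fell with genotype under regular activity (gap -0.58, adjusted p = 0.0244) and had an exercised gap of -0.18 (interaction 0.4, SE 0.16).

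**Figure D5:**
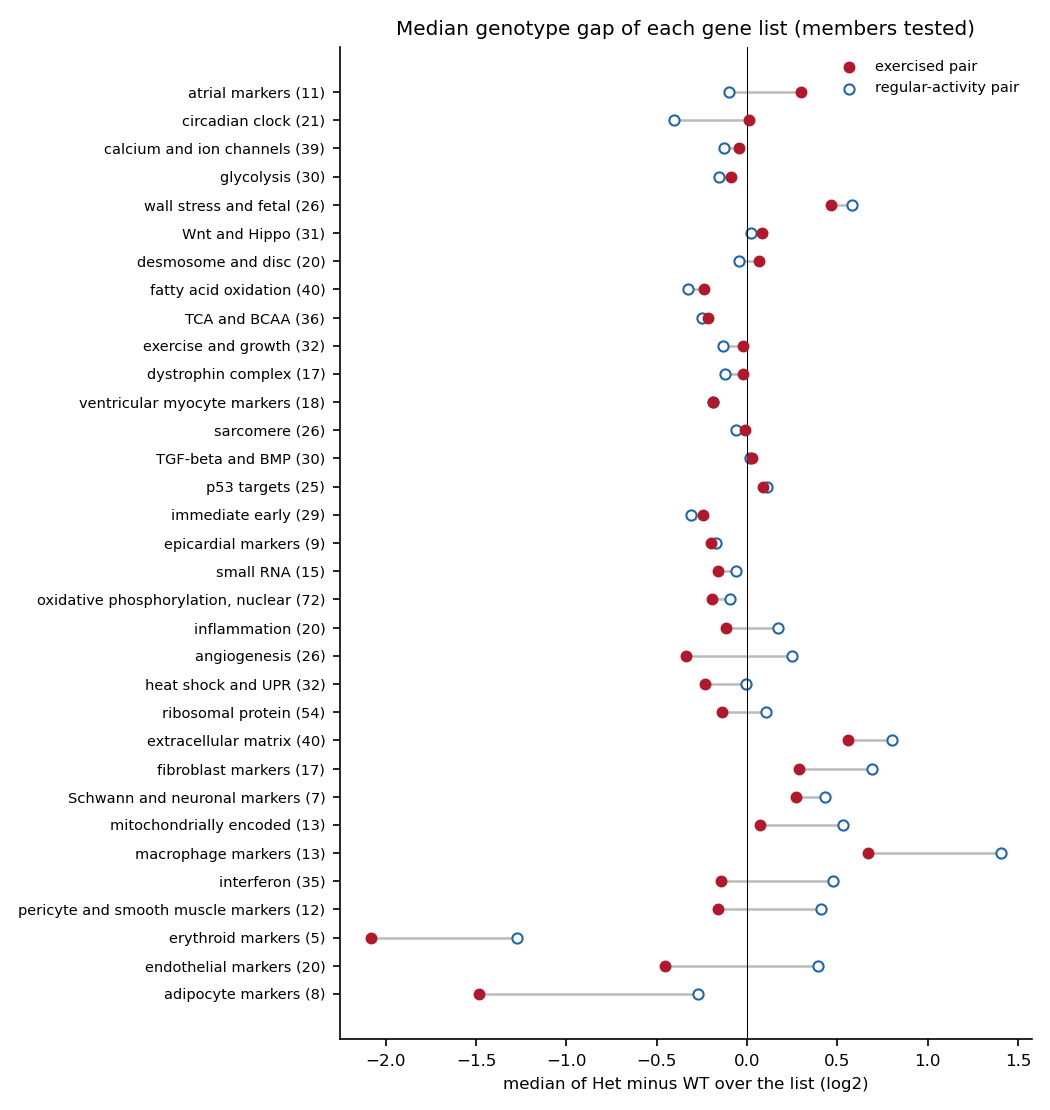
Median genotype gap (log2) of each gene list in the exercised and in the regular-activity pair. The fatty acid oxidation, tricarboxylic acid and oxidative phosphorylation lists lie below 0 and the wall stress and matrix lists above 0 in both pairs, and the endothelial list lies at -0.45 with exercise and 0.4 with regular activity.

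Markers of endothelial cells had a negative interaction for 20 of 20 genes, against 48.7% of all genes, with a median of -0.84 and no gene called. In bulk libraries, fewer cells of a type and less RNA per cell cannot be told apart. The mean log2 CPM of the 20 markers was 4.22, 5.02, 5.22, 5.43 and 5.13 in exercised heterozygous and 6.62, 4.45, 4.91, 4.94 and 5.13 in exercised wild-type libraries. It was 5.3, 5.07, 6.08, 5.41 and 5.63 in regular-activity heterozygous and 5.11, 5.04, 5.41, 5.12 and 4.95 in regular-activity wild-type libraries. Both pairs overlapped, and exercised wild-type library 1 stood above all other libraries. Summed over the markers, the range was 600.2 to 1259 CPM in exercised heterozygous, 720.2 to 3307 in exercised wild-type, 973 to 2111 in regular-activity heterozygous and 921 to 1297 CPM in regular-activity wild-type libraries. Without exercised wild-type library 1 the list median was -0.3, and with any other library left out it was -0.63 or lower. Tie1, an endothelial receptor of the angiopoietin system, had 22.2, 31.7, 50.1, 38.4 and 32.2 CPM in exercised heterozygous and 149, 35.4, 56.5, 45.7 and 40.1 CPM in exercised wild-type libraries (interaction -1.23, SE 0.47, adjusted p = 0.953).

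Macrophage markers had a negative interaction for 13 of 13 (median -0.55), but a positive gap in both pairs, of median 0.67 with exercise and 1.4 with regular activity. Their mean log2 CPM was 0.21, 1.15, 1.19, 2.87 and 1.38 in exercised heterozygous and 2.2, 0.11, 0.21, 0.17 and 1.07 in exercised wild-type libraries, which overlapped. It was 2.12, 2.01, 2.96, 2.09 and 2.37 in regular-activity heterozygous and 0.9, 1.08, 1.53, 0.65 and 1.05 in regular-activity wild-type libraries, which did not. Exercised wild-type library 1 and exercised heterozygous library 4 were the highest of their groups, and without the first the interaction median was -0.25 and without the second -1.08. Fibroblast markers (13 of 17 negative, median -0.34) and extracellular matrix genes (30 of 40 negative, median -0.27) turned to 0.03 and 0.05 without exercised wild-type library 1. Without exercised heterozygous library 4 these 2 medians were -0.81 and -0.91. Pericyte and smooth muscle markers (9 of 12 negative, median -0.59) kept a negative median of -0.24 without exercised wild-type library 1. The part of these cells in any gene's interaction was not tested.

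Interferon-induced genes followed the endothelial and macrophage markers in sign. The interaction was negative for 34 of 35 (median -0.56), with a gap median of -0.14 with exercise and 0.47 with regular activity. Their mean log2 CPM was 1.73, 2.13, 2.52, 2.24 and 2.33 in exercised heterozygous and 2.99, 2.08, 1.96, 2.01 and 2.45 in exercised wild-type libraries, and 2.66, 2.96, 3.24, 2.83 and 2.65 in regular-activity heterozygous and 2.43, 2.42, 2.5, 2.14 and 2.69 in regular-activity wild-type libraries, with overlap in both pairs. Left out one at a time, the libraries moved the median between -0.71 and -0.4, and the median was nearest to 0 without exercised wild-type library 1. Rsad2, the antiviral enzyme viperin, had 2.43, 5.32, 7.34, 8.22 and 7.24 CPM in exercised heterozygous and 21.4, 7.7, 6.8, 4.58 and 12.9 CPM in exercised wild-type libraries, and 9.53, 9.15, 8.93, 16.7 and 7.07 CPM in regular-activity heterozygous and 6.19, 5.87, 9.89, 10.2 and 4.84 CPM in regular-activity wild-type libraries (interaction -1.27, SE 0.57, adjusted p = 0.985). Oas2, an oligoadenylate synthetase that activates RNase L, had 2.76, 3.46, 2.59, 3.02 and 3.47 CPM in exercised heterozygous and 11.3, 2.84, 2.1, 4.37 and 8.17 CPM in exercised wild-type libraries (interaction -1.66, SE 0.55, adjusted p = 0.818). The promoter of Rsad2 (chr12:26456528-26456607, minus strand, RefSeq GRCm38.p6) is shown as an example of a list member with the interferon-stimulated response element, repeats of GAAA or their complement, in capitals, which begin 120 bases before the start.
Rsad2: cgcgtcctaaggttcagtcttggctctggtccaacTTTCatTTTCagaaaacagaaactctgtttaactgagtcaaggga
On either strand GAAA, NN and GAAA in a row were present in 1131 of 32851 windows (3.44%; 3.99% of genes) and in 13 of the 28 list genes that had a window.

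Ribosomal protein genes had a negative interaction for 48 of 54 (median -0.24), with 9 negative and 2 positive at an unadjusted p under 0.05, against 2.07% and 2.84% of all genes. Their mean log2 CPM was 6.61, 6.41, 6.6, 6.36 and 6.33 in exercised heterozygous and 6.52, 6.54, 6.61, 6.5 and 6.69 in exercised wild-type libraries, against 6.86, 6.72, 6.64, 6.94 and 7 in regular-activity heterozygous and 6.84, 6.62, 6.46, 6.96 and 6.82 in regular-activity wild-type libraries, so that the groups overlapped in both pairs. The list median stayed between -0.32 and -0.18 when any 1 library was left out. Rps24, the most negative by p, averaged 146 ± 19.2 CPM in exercised heterozygous and 176 ± 17.9 CPM in exercised wild-type libraries, against 152 ± 17 and 130.3 ± 20.4 CPM in regular-activity heterozygous and wild-type libraries (interaction -0.49, SE 0.17). Many ribosomal protein genes have processed copies, as Rps2 does, and their counts share the uncertainty given above. Transcripts of the mitochondrial genome had a negative interaction for 13 of 13 (median -0.46), which was -0.03 without exercised wild-type library 1. The median was 0.05 with the mitochondrial share as a covariate. That share is computed from these same transcripts, so the last value was largely set in advance and tests nothing about this list.

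Clock genes differed among libraries of a group. The interaction was positive for 18 of 21 (median 0.3), with a gap median of 0.0087 with exercise and -0.41 with regular activity. Arntl, the activator of the clock, had 1.84, 1.11, 1.82, 2.84 and 1.33 CPM in exercised heterozygous and 3.96, 1.48, 5.02, 1.81 and 4.58 CPM in exercised wild-type libraries. It had 1.44, 11.4, 0.721, 13.7 and 17.5 CPM in regular-activity heterozygous and 9, 5.22, 4.16, 5.19 and 2.03 CPM in regular-activity wild-type libraries. Regular-activity heterozygous libraries 2, 4 and 5 thus lay above all other libraries, and libraries 1 and 3 of the same group lay at or below the level of the exercised heterozygous ones. Per1, a repressor in the clock, had 49.4, 34.9, 63.3, 33.7 and 17.8 CPM in regular-activity heterozygous and 51.6, 62.8, 63.7, 57.3 and 74.9 CPM in regular-activity wild-type libraries, with its lowest 3 values in those same libraries (interaction 0.79, SE 0.37). The time of day of tissue collection is not in the labels, and its part in these values was not tested.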

How the data were processed

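The authors deposited 1 table of read counts per gene for the series. The submitters' processing notes name the tools featureCounts, HISAT2 and Trim Galore and the mouse build mm10; versions, annotation, strand setting and filters are not given in the sources used here. The deposited counts hold 52573 entries, from which 23 spike-ins were left out, and 26 symbols deposited as dates were replaced by those of their gene IDs. Low-count genes were removed with edgeR's filterByExpr, which left 15587. All 30 libraries entered 1 fit (edgeR 4.0.16, R 4.3.3; TMM scaling, robust quasi-likelihood F test, 24 residual degrees of freedom), and p-values were adjusted by Benjamini-Hochberg over all genes at a threshold of 0.05. Standard errors and 95% intervals came from the F statistic. Gene positions are from GENCODE M21 (GRCm38), and promoter windows from RefSeq (GRCm38.p6).

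Named genes are Dsp, genes called for the interaction, up to 4 per list and 15 disease or gap genes. Added to them were the 10 of smallest interaction p in each direction and the 8 of smallest p for each gap. In both of these rankings the mean log2 CPM had to reach 1 and the symbol could not be provisional, such as Gm with digits. Others are said to be chosen after their values were seen. Members and lists were chosen with earlier results of these data known. Alternatives were size-factor scaling, no filter, DESeq2 1.42.0, limma-voom (limma 3.58.1), surrogate variables (sva 3.50.0), covariates, 6-month libraries only, a replicate block and leaving out libraries. Counting intervals cover counting error only. The procedure was tested on simulated data, with counts drawn independently for each library. The simulation held no outlying libraries and no shift with age or exercise, so it does not cover those features of the data.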

Additional observations from a re-analysis of the deposited data

Results flagged for a closer look

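The genotype gap differed between the exercised and the regular-activity pair, by the edgeR test of the interaction, for Rps2-ps10 (-5.0) and Aqp6 (-13.03, a fitted value that depends on the prior count).

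A gap between the highest or lowest library and the other 4 of its group that exceeded Dixon's 95% critical value occurred in 29 of 256 groups examined. The rule's rate of about 1 in 20 holds for independent, normally distributed values. Gene values here were CPM without logarithm, many genes were named for their values, and all measures share the libraries. The 29 are therefore not set against that rate. Of the 29, 7 fell in exercised heterozygous library 4, 6 in exercised wild-type library 1 and 3 in exercised wild-type library 5.

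In exercised heterozygous library 4, Aqp6 was at 0.709, Casq2 at 1701, Nppa at 1329, Myh7 at 8369.7 and Dsc2 at 33.8 CPM, and the mean log2 CPM was 4.76 for the clock list and 7.50 for the tricarboxylic acid list. In exercised wild-type library 1, Pcolce was at 34.3, Jph1 at 29.9 and Tie1 at 149 CPM, the mean log2 CPM was 6.42 for pericyte and 8.09 for desmosome genes, and 46.9% of counts were mitochondrial. In exercised wild-type library 5, Rps2-ps10 was at 0.764, Rps2 at 681 and Per1 at 65.8 CPM. In exercised wild-type library 4 the wall stress list had a mean log2 CPM of 5.31.

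Among regular-activity heterozygous libraries, Cdkn1c was at 10.7 CPM in library 3, Rsad2 at 16.7 CPM in library 4, and Hsp90ab1 at 918 and Gja1 at 739 CPM in library 5. Library 2 of that group had a mean log2 CPM of 7.57 for fatty acid oxidation and 8.12 for tricarboxylic acid genes. Among regular-activity wild-type libraries, Dmd was at 342 CPM in library 1, Rgs4 at 7.26 CPM in library 2, Macrod1 at 119.7 CPM in library 3, and Aqp6 at 0.145 and Pkp2 at 201 CPM in library 5. Library 3 of that group had 23.1 M counts (M, mega).

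Outside the genes compared, up to 18 spike-in RNAs had a value entered in regular-activity libraries and none in exercised libraries.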

How the results depend on the processing

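Among 45 named genes, leaving aside those named by a list alone, no interaction reversed its sign as a called value. Such a reversal could be seen only for a gene called in the main fit or in the alternative, and the main fit called 2. Interactions that were not called did change sign for some genes, such as Amy1 in 17 fits, Ndnf in 14 and Jup in 5. The counts of calls moved. The interaction, called for 2 genes, was called for 5 without the filter, 8 with DESeq2 and 13 with limma-voom (0 of them shared with the 2). It was called for 0 with a replicate block, with the 6-month libraries only, without regular-activity wild-type libraries 2 and 5, without exercised wild-type library 1 and exercised heterozygous library 4, and at an adjusted p under 0.01. Leaving out 1 library gave 0 to 7 (0 without exercised heterozygous library 1, 2 or 3, regular-activity heterozygous library 2 or regular-activity wild-type library 3, 4 or 5, and 7 without exercised wild-type library 5). The exercised gap, called for 63, was called for 200 with DESeq2, 194 with limma-voom, 127 at an adjusted p under 0.1 and 22 under 0.01, and for 25 to 89 with 1 library left out (25 without exercised wild-type library 2 or 4, 89 without library 1). The regular-activity gap, called for 21, was called for 11 with a replicate block, 56 with DESeq2, 476 with limma-voom, 7 with surrogate variables, 12 with the mitochondrial share as covariate, 4 without regular-activity wild-type libraries 2 and 5, 117 without exercised wild-type library 1 and exercised heterozygous library 4, 36 at an adjusted p under 0.1 and 6 under 0.01. With 1 library left out it was called for 6 to 77 (6 without regular-activity heterozygous library 1 or 5, 77 without exercised heterozygous library 4). The cause was not tested. Rps2-ps10 was called in 13 and Aqp6 in 12 of the 20 fits that left out 1 library. Same-numbered libraries did not deviate together (mean correlation -0.018), so the replicate block pairs libraries by a number only.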

Other observations

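Of 26 sarcomere genes the interaction was positive for 19 (median 0.04, and -0.06 without exercised wild-type library 1, with a negative median in 4 of the 20 fits that left out 1 library) and of 30 genes of TGF-beta and BMP signalling for 16 (median 0.03, and -0.0097 with size-factor scaling), against 51.3% of all genes. Angiogenesis genes had a negative interaction for 16 of 26 (median -0.16), with 5 negative and 2 positive at an unadjusted p under 0.05 (2.07% and 2.84% of all genes), and a gap median of -0.34 with exercise and 0.25 with regular activity. Adipocyte markers were negative for 6 of 8 (median -1.36), among them Cfd, the protease adipsin, with 0.502, 0.0691, 0.42, 1.54 and 0.665 CPM in exercised heterozygous and 0.972, 14.6, 5.02, 3.36 and 16.5 CPM in exercised wild-type libraries. Atrial and conduction markers were positive for 9 of 11 (median 0.35, and -0.14 without regular-activity wild-type library 3), and the p53 targets divided into 13 positive and 12 negative, with a median of 0.0047 that was -0.03 with size-factor scaling. No gene of these lists was called for the interaction.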
